A study of Mus musculus with 8 samples.

Results

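The interferon response genes and the machinery that prepares peptides for MHC class I were followed in the small intestine of mice given a glucocorticoid, a Notch pathway inhibitor, or both. A list of 37 mouse genes was chosen with earlier results of these data known. By role it held 9 genes of antigen processing, 6 interferon-inducible GTPases, 14 antiviral genes, 6 regulators and 2 chemokines. Of these, 34 had at least 1 probe set of their own among the 12393 genes that had one on the array, and 28 of the 8094 genes bright enough to be tested belonged to the list. Psmb8, the LMP7 subunit of the immunoproteasome, had a lower signal on each of the 5 treated arrays than on both vehicle arrays and fell in all 3 comparisons with vehicle.

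All mice were 6-week-old C57/Black6 females, and all groups were injected intraperitoneally each day for 5 days before the small intestine was taken. The vehicle group received dimethyl sulfoxide (DMSO), the dexamethasone group the glucocorticoid at 15 mg/kg, the DBZ group an inhibitor of gamma-secretase, DBZ, at 10 umol/kg, and the combination group both drugs at these doses. Gamma-secretase releases the active part of Notch receptors, and the series concerns such inhibitors together with glucocorticoids in T-cell leukaemia. The labels name 2 mice per group and describe the tissue as unprocessed small intestine, with no position along the gut. The pair of DBZ columns was identical in 22684 of 22690 probe sets and was counted as 1 array, so 7 arrays were used, and the p-values measure only the spread between these arrays, with the single DBZ array taken to vary like the others.

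Interferons signal through receptor-bound JAK kinases to STAT transcription factors. Type I interferon acts through a complex with STAT2 and IRF9 at the interferon-stimulated response element, while interferon gamma acts at the gamma-activated site. The immunoproteasome subunits Psmb8, Psmb9 and Psmb10 replace the constitutive catalytic subunits in immune cells and after interferon gamma, the TAP1 and TAP2 pair carries the cut peptides into the endoplasmic reticulum, tapasin (Tapbp) helps to load them, and beta-2 microglobulin (B2m) is the light chain of the class I molecule on the cell surface. In the gut, these genes are known to be active in the epithelium and in the intraepithelial lymphocytes that lie within it.

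Upstream sequences of 6 members on which the results turn are shown, with 1 stretch common to Psmb9 and Tap1, because the response element cores that define this pathway differ between them. They are the 250 bases before the RefSeq start of each gene, or the bases between both starts for that pair, in GRCm38.p6, written in the direction of the gene, with interferon-stimulated response element cores (GAAA, any 2 bases and GAAA again) and gamma-activated site cores (TTCNNNGAA) in capitals, searched on both strands.
Psmb8 (chr17:34197945-34198194, plus strand): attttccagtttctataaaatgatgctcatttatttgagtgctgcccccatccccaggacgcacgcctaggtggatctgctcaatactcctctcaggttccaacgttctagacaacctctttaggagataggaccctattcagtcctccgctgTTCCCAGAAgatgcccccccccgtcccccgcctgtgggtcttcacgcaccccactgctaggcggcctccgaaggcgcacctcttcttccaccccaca
Ifit1 (chr19:34640639-34640888, plus strand): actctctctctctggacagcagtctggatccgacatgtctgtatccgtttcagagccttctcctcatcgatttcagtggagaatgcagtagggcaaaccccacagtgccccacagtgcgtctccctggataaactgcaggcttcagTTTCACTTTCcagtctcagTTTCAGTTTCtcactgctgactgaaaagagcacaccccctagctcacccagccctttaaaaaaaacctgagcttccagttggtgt
Gbp2 (chr3:142620413-142620662, plus strand): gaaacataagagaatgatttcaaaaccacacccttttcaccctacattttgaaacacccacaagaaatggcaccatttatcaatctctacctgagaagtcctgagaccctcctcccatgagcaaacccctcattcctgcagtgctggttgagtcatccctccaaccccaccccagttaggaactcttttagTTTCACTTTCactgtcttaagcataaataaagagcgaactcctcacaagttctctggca
Igtp (chr11:58199306-58199555, plus strand): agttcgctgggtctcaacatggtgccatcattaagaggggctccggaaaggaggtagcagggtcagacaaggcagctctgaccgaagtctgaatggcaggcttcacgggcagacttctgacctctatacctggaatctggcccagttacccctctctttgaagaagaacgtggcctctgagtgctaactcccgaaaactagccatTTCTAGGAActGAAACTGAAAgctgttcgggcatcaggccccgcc
Psmb9 and Tap1, shared (chr17:34187331-34187555, strand of Tap1): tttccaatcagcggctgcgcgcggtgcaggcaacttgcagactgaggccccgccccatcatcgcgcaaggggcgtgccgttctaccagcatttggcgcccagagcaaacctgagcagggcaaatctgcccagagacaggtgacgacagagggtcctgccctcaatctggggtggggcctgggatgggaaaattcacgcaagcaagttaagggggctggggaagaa

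The Psmb8 window held a gamma-activated site core at positions -97 to -89 from the start and no interferon-stimulated response element core. The Ifit1 window held 2 interferon-stimulated response element cores on the minus strand, at -104 to -95 and -85 to -76, and Gbp2 held 1 at -59 to -50. The Igtp window held a core of each kind, at -34 to -25 and -45 to -37. Psmb9 and Tap1 start on opposite strands, and the 225 bases between their starts held neither core. Psmb9, Tap1, Psmb8 and Tap2 follow each other directly among the protein-coding genes of the RefSeq table, between the class II genes H2-DMb1 and H2-Ob. These 4 members therefore share a stretch of chromosome 17.

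The promoter table held 31 of the 37 listed genes; Tap2, Iigp1, Usp18, Zbp1, Mx1 and Mx2 had no entry. The interferon-stimulated response element core was found in 13 of the 31, against 3.46% of all 27025 genes in the table and 2.98% of its 32851 windows of this length. By role, it was found in 1 of 8 antigen processing genes (B2m), 4 of 5 GTPases, 5 of 10 antiviral genes, 2 of 6 regulators and 1 of 2 chemokines. The gamma-activated site core was found in 7 of the 31 (Psmb8, Igtp, Ifit2, Bst2, Eif2ak2, Irf1 and Irf8), against 8.13% of all genes and 7.02% of all windows. A match shows these letters in the window and not a bound site. A window with no match leaves sites elsewhere or with other letters unexamined.

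Signals are MAS5 values per probe set, rescaled so that each array had a trimmed mean of 250, because the vehicle columns had been deposited with a trimmed mean near 500.2 and the others near 250.1. Without this step the median of all probe sets shifts by -0.92, -1.0 and -0.99 with dexamethasone, DBZ and both, so directions are read after it. Every vehicle array and no treated array had the higher deposited scale. Any other difference in processing that went with the scale therefore cannot be told apart from treatment. Differences are given as log2 of signal plus 12.3, with the standard error (SE), and adjusted p is from limma with Benjamini-Hochberg adjustment over 13638 probe sets at a threshold of 0.05; "fell" and "rose" are used only of genes past it. Rank correlations between arrays were 0.960 to 0.970 within a group, 0.939 to 0.972 between treated groups and 0.892 to 0.928 between vehicle and treated arrays. The ratio of the 3' to the 5' control probe set, a sign of RNA quality, was 1.80 for Gapdh on the DBZ array and 0.905 to 1.22 on the others. All 10 epithelial markers passed the filter on low signal. All 8 markers of the ileum, the distal small intestine, rose with dexamethasone and DBZ and 7 rose in the combination, with medians of 3.55, 3.98 and 3.09, and of 6 tested markers of the proximal gut 4, 4 and 2 fell. The vehicle and treated samples thus differed in the marker pattern of gut position, and its part in the results below was not tested.

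Of the 28 tested members, 8 passed the threshold with dexamethasone, 7 lower and 1 higher, which is 28.6% against a background of 12.2% of all tested genes (5.29% lower and 6.93% higher). With DBZ 3 members fell and 0 rose, 10.7% against 7.83% of all genes (3.89% lower and 3.94% higher). In the combination 8 fell and 1 rose, 32.1% against 7.33% (3.5% lower and 3.83% higher). The median log2 difference of the 28 was -0.49, -0.53 and -0.48 in these comparisons, against 0.02, -0.02 and -0.05 over all tested genes. The 3 comparisons share their vehicle arrays and are not independent of one another. Because the list was chosen with earlier results of these data known, its shares beside all genes are a description and no independent test. The counts changed when single arrays were left out, and such fits have fewer degrees of freedom for the spread. Leaving out an array of a group that is not compared changes the SE and p of a difference but not its size. With dexamethasone, 4 members passed without vehicle replicate 1, 3 without vehicle replicate 2, 5 and 1 without dexamethasone replicates 1 and 2, and 3 without either combination array. With DBZ, 5 passed without either dexamethasone array and 2 without either combination array. In the combination, 4 and 3 passed without vehicle replicates 1 and 2, and 1 without either combination array. With no filter on low signal 2 and 4 members passed with dexamethasone and the combination, and with only the groups compared 3 and 6 passed with dexamethasone and DBZ.

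All 5 treated arrays lay below both vehicle arrays for 15 of the 28 tested members, and above both for Gbp2. Over all tested genes the shares were 17% below and 15.4% above, and the way the list was chosen limits this comparison too. The 15 were 7 of 8 antigen processing genes, 2 of 6 GTPases, 5 of 9 antiviral genes and 1 of 5 regulators.

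**Figure D1:**
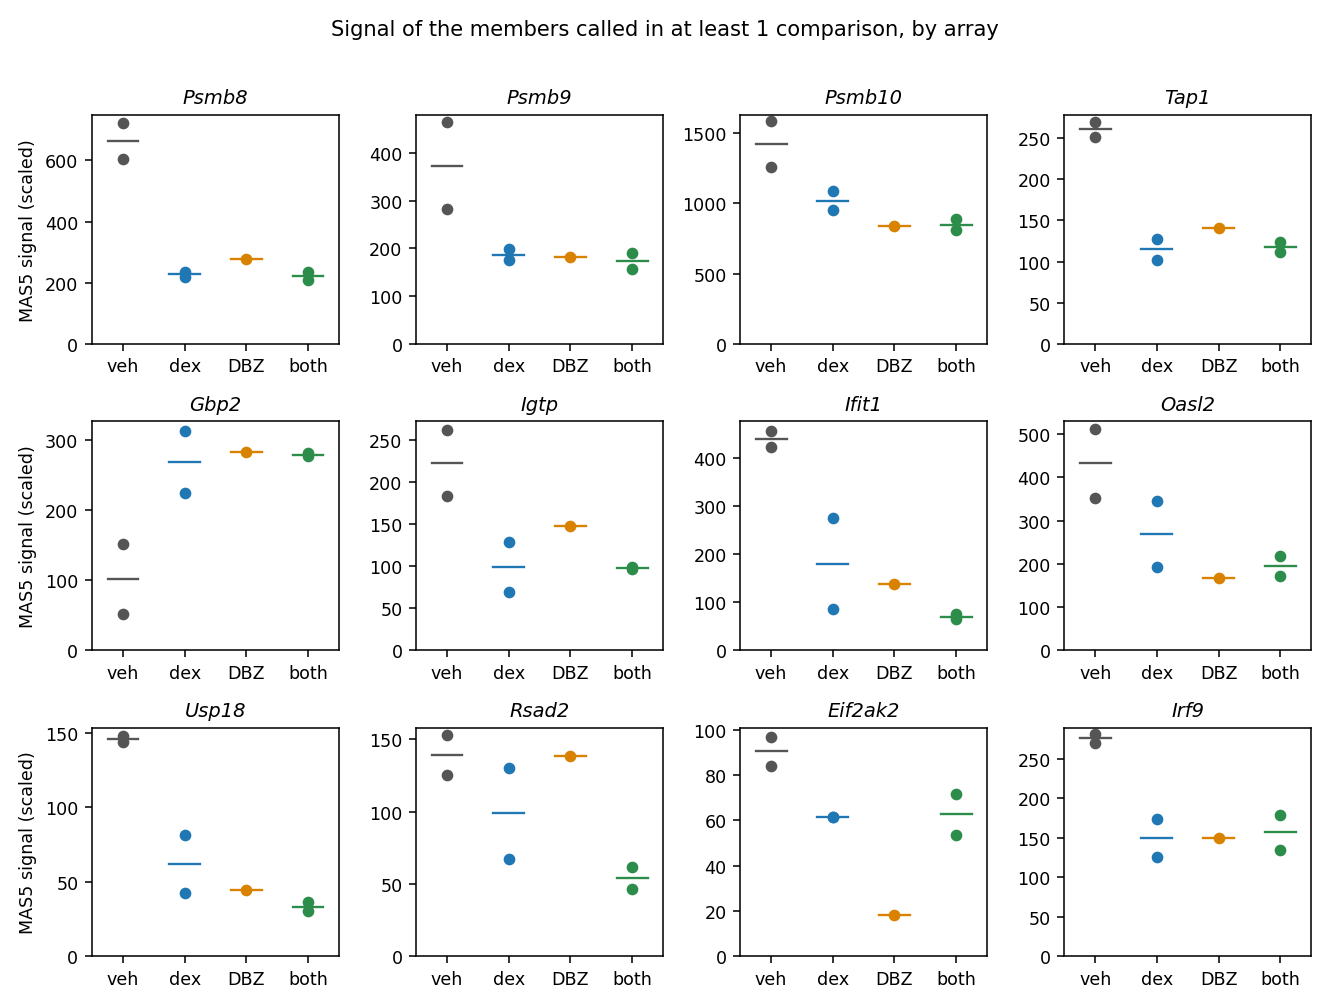
Signal of each member that passed the threshold in at least 1 comparison, on every array (vertical axis from 0, scaled MAS5 signal; points are single arrays, grouped as vehicle, dexamethasone, DBZ and both drugs). Psmb8 lies between 605 and 723 on the vehicle arrays and between 209 and 278 on the treated arrays, while Gbp2 is higher on the treated arrays.

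In the antigen processing group, Psmb8, Tap1 and Psmb9 fell with dexamethasone, Psmb8 alone passed with DBZ, and Psmb8, Tap1, Psmb9 and Psmb10 fell in the combination, out of 8 tested genes. Psmb8 had signals of 723 and 605 in vehicle mice, 235 and 218 after dexamethasone, 278 after DBZ, and 233 and 209 after both drugs. The treated arrays did not overlap the vehicle arrays and lay close together. The differences were -1.50 ± 0.18 with dexamethasone (adjusted p = 0.00145), -1.21 ± 0.22 with DBZ (adjusted p = 0.0137) and -1.53 ± 0.18 in the combination (adjusted p = 0.00222). These calls remained without each vehicle, dexamethasone or combination array in turn, at -1.09 to -1.66, while the DBZ value itself rests on 1 array.

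Tap1, the transporter subunit that shares its promoter with Psmb9, had signals of 270.0 and 252 in vehicle mice, 127 and 102 after dexamethasone, 141 after DBZ, and 112 and 123 after both drugs. No treated array reached the vehicle arrays. Tap1 fell by 1.11 ± 0.21 with dexamethasone (adjusted p = 0.00915) and by 1.07 ± 0.21 in the combination (adjusted p = 0.0156), and its difference with DBZ was -0.83 ± 0.25 (adjusted p = 0.075). The dexamethasone call ended without dexamethasone replicate 2 (-0.97), and the combination call ended without either vehicle array (-1.03 and -1.12) or either combination array (-1.01 and -1.14).

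Psmb9, the LMP2 subunit, had signals of 464 and 283 in vehicle mice, 198 and 175 after dexamethasone, 182 after DBZ, and 157 and 191 after both drugs. The vehicle arrays differed from each other by more than the treated arrays did. Psmb9 fell by 0.92 ± 0.25 with dexamethasone (adjusted p = 0.0405) and by 1.02 ± 0.25 in the combination (adjusted p = 0.0367), and its difference with DBZ was -0.95 ± 0.30 (adjusted p = 0.0833). The dexamethasone call ended without vehicle replicate 1 (-0.57), dexamethasone replicate 1 (-1.0) or 2 (-0.83), or either combination array (-0.92), and the combination call ended without vehicle replicate 1 (-0.67) or combination replicate 1 (-0.89) or 2 (-1.14).

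Psmb10, the MECL-1 subunit, had signals of 1590.2 and 1257 in vehicle mice, 1087 and 949.5 after dexamethasone, 839 after DBZ, and 809 and 887 after both drugs. It fell in the combination, by 0.73 ± 0.18 (adjusted p = 0.0372), and this call was lost without vehicle replicate 1 (-0.56), either combination array (-0.67 and -0.80) or either dexamethasone array (-0.73). Its differences with dexamethasone and DBZ were -0.47 ± 0.18 and -0.74 ± 0.22 (adjusted p = 0.121 and 0.0645).

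The other 4 tested genes of the group did not pass in any comparison. Psme1, a subunit of the proteasome activator PA28, differed by -0.49, -0.52 and -0.54 with dexamethasone, DBZ and the combination, and Tap2, the partner of TAP1, by -0.71, -0.29 and -0.79. B2m had signals of 8321 and 8016 on the vehicle arrays and 5224 to 7494 on the treated arrays, with differences of -0.62, -0.19 and -0.37. Its second probe set gave -0.43, -0.40 and -0.12. Tapbp stood apart, with 2043 and 2126 on the vehicle arrays and 2049 to 2539 on the treated arrays, and its second probe set gave 0.55, -0.35 and 0.21. Psme2, the partner of PSME1 in PA28, was represented only by a probe set that also names another gene and was not analysed here.

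The constitutive counterparts of the 3 immunoproteasome subunits did not pass the threshold in any comparison with vehicle. Psmb5, replaced by PSMB8, differed by 0.06, -0.07 and 0.01 with dexamethasone, DBZ and the combination, Psmb6, replaced by PSMB9, by 0.18, 0.15 and 0.09, and Psmb7, replaced by PSMB10, by 0.07, -0.35 and -0.10. Within each array, the difference between Psmb8 and Psmb5, counted from its vehicle mean, was -0.04 and 0.04 on the vehicle arrays and -1.14 to -1.87 on the treated arrays. The difference between Psmb9 and Psmb6 was 0.23 and -0.23 on the vehicle arrays and -0.95 to -1.25 on the treated arrays. That between Psmb10 and Psmb7 was 0.08 and -0.08, and -0.31 to -0.77. In each of the 3 pairs, no treated array reached the vehicle arrays.

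**Figure D2:**
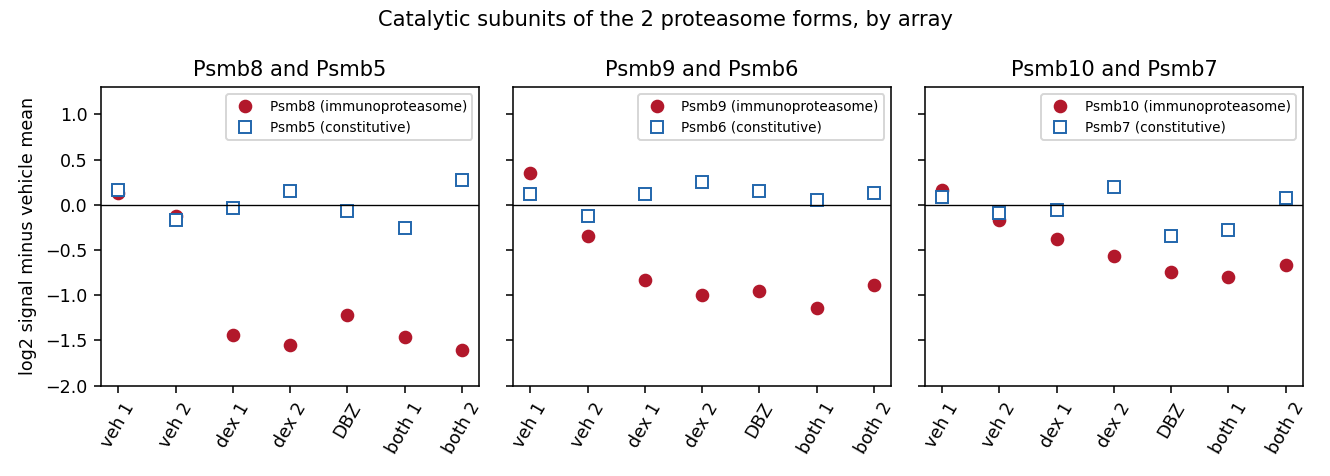
Log2 signal of the 3 immunoproteasome subunits and their constitutive counterparts on each array, counted from the vehicle mean of the same gene (vertical axis, log2; horizontal axis, array). The immunoproteasome subunits lie below 0 on every treated array, with Psmb8 at -1.21 to -1.60, while Psmb5, Psmb6 and Psmb7 lie between -0.35 and 0.27.

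Across all 34 tested genes of the constitutive proteasome, 1 rose and 1 fell with dexamethasone, 1 rose with DBZ and 0 passed in the combination, with medians of 0.07, -0.10 and -0.09. Psme3, the nuclear activator subunit PA28 gamma, fell by 1.15 with dexamethasone, and the ubiquitin receptor Psmd4 rose by 0.61 with dexamethasone and 0.88 with DBZ. Of 10 tested genes for class I chains and loading, Pdia3, the chaperone ERp57, fell with DBZ by 1.15 ± 0.24 (adjusted p = 0.0226), and no other passed in the comparisons with vehicle. The classical heavy chain H2-K1 differed by -0.22, 0.04 and -0.04, and H2-D1 by -0.04, 0.23 and 0.14. The medians of this group were -0.18, -0.21 and -0.16.

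Among the interferon-inducible GTPases, which attack the vacuoles of intracellular pathogens, members differed in direction. Gbp2, a guanylate-binding protein, had signals of 151 and 51.2 in vehicle mice, 313 and 224 after dexamethasone, 283 after DBZ, and 281 and 276 after both drugs. All treated arrays were above both vehicle arrays, which themselves differed widely. Gbp2 rose by 1.44 ± 0.37 with dexamethasone (adjusted p = 0.0349) and by 1.51 ± 0.37 in the combination (adjusted p = 0.0384), and its difference with DBZ was 1.53 ± 0.46 (adjusted p = 0.0671). Both calls ended without vehicle replicate 2, where the differences were 0.76 and 0.83. The dexamethasone call also ended without dexamethasone replicate 1 (1.21) or 2 (1.67) or either combination array (1.44), and the combination call without combination replicate 1 (1.5) or 2 (1.53). Its second probe set gave 1.13, 1.46 and 1.07, none past the threshold, and without rescaling its differences with dexamethasone and the combination were 0.54 and 0.61 and did not pass.

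Igtp, also known as Irgm3, had signals of 262 and 184 in vehicle mice, 128 and 68.5 after dexamethasone, 147 after DBZ, and 95.9 and 98.8 after both drugs. The treated arrays lay below the vehicle arrays. Igtp fell by 1.12 ± 0.29 with dexamethasone (adjusted p = 0.0356), and this call was lost without vehicle replicate 1 (-0.88) or 2 (-1.37), dexamethasone replicate 2 (-0.72) or either combination array (-1.12). In the combination its difference was -1.08 ± 0.29 (adjusted p = 0.0527), and with DBZ -0.54 ± 0.36 (adjusted p = 0.371).

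Ifi47, of the same family, had signals of 234 and 159 in vehicle mice, 136 and 81.3 after dexamethasone, 126 after DBZ, and 102 and 152 after both drugs. No treated array reached the lower vehicle array, and the differences of -0.80, -0.56 and -0.59 did not pass. Irgm1 had 108 and 127 in vehicle mice, 125 and 101 after dexamethasone, 69.6 after DBZ, and 89.9 and 76.4 after both drugs. Its dexamethasone arrays overlapped the vehicle arrays, and its differences were -0.05, -0.66 and -0.44. Gbp3 and Iigp1 overlapped between vehicle and treated arrays, with differences of 0.08, 0.21 and -0.21 for Gbp3 and 0.42, 0.38 and 0.36 for Iigp1, whose vehicle signals were 157 and 41.4.

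**Figure D3:**
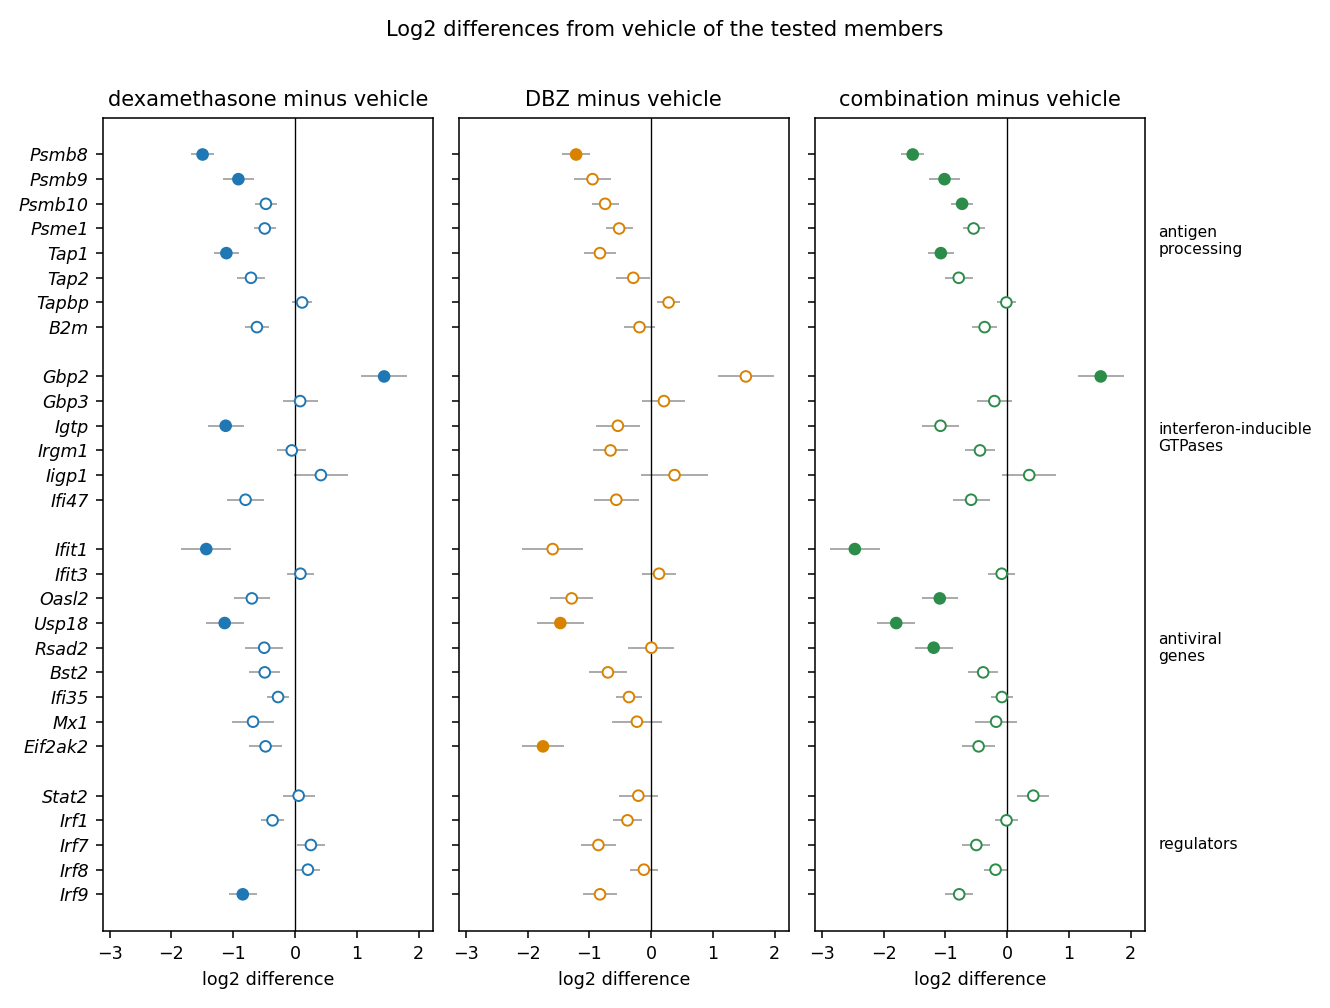
Log2 difference from vehicle of each tested member, by role, in the dexamethasone, DBZ and combination groups (log2 axis; bars are the SE, filled points passed the threshold). Most antigen processing genes lie below 0 in all 3 comparisons, and the GTPases lie on both sides, with Gbp2 at 1.44 to 1.53.

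Of the 9 tested antiviral genes, Usp18 and Ifit1 fell with dexamethasone, Usp18 and Eif2ak2 fell with DBZ, and Ifit1, Usp18, Rsad2 and Oasl2 fell in the combination. Ifit1, which binds viral RNA that lacks the host cap, had signals of 422 and 456 in vehicle mice, 275 and 84.2 after dexamethasone, 137 after DBZ, and 74.9 and 64.0 after both drugs. The combination arrays were the lowest, and the dexamethasone arrays differed from each other more than the vehicle or combination arrays did. Ifit1 fell by 1.44 ± 0.41 with dexamethasone (adjusted p = 0.0474) and by 2.47 ± 0.41 in the combination (adjusted p = 0.00819), and its difference with DBZ was -1.59 ± 0.50 (adjusted p = 0.0781). Without dexamethasone replicate 2 the dexamethasone difference was -0.65 and no call, and the call also ended without vehicle replicate 1 (-1.49) or 2 (-1.38) or either combination array (-1.44), while without dexamethasone replicate 1 it was -2.22 and a call. The combination call ended without vehicle replicate 2 (-2.41) or combination replicate 1 (-2.56) or 2 (-2.37).

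Usp18, the protease that removes ISG15 from proteins and damps the type I receptor, had signals of 144 and 148 in vehicle mice, 81.7 and 42.6 after dexamethasone, 44.8 after DBZ, and 36.2 and 30.4 after both drugs. The vehicle arrays were nearly equal and all treated arrays were below them. Usp18 fell in all 3 comparisons, at -1.14 ± 0.31 with dexamethasone (adjusted p = 0.041), -1.47 ± 0.38 with DBZ (adjusted p = 0.0431) and -1.80 ± 0.31 with both (adjusted p = 0.0096). The dexamethasone call ended without vehicle replicate 1 (-1.15) or 2 (-1.12), dexamethasone replicate 2 (-0.75) or either combination array (-1.14). The DBZ call ended without either vehicle array (-1.49 and -1.45) or either combination array (-1.47), and the combination call without vehicle replicate 2 (-1.78) or combination replicate 1 (-1.89) or 2 (-1.71).

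Eif2ak2, the RNA-activated kinase PKR, had signals of 96.9 and 84.1 in vehicle mice, 61.3 and 61.5 after dexamethasone, 18.2 after DBZ, and 71.7 and 53.6 after both drugs. The single DBZ array was far below every other array. It fell with DBZ, at -1.75 ± 0.33 (adjusted p = 0.0156), and the differences with dexamethasone and the combination were -0.48 and -0.46. Its second probe set, at 38.6 on the DBZ array and 66.3 and 66.7 on the vehicle arrays, gave -0.63 with DBZ, and the mean of both probe sets, -1.19, did not pass.

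Rsad2, the antiviral enzyme viperin, had signals of 125 and 153 in vehicle mice, 130 and 67.5 after dexamethasone, 139 after DBZ, and 61.6 and 46.5 after both drugs. On its brightest probe set, which gave these signals, the DBZ array lay within the vehicle range and both combination arrays lay below that range. It fell in the combination by 1.19 ± 0.30 (adjusted p = 0.0448), and this call was lost without vehicle replicate 1 (-1.32) or 2 (-1.06) or combination replicate 1 (-1.36) or 2 (-1.03). On the brightest probe set the differences with dexamethasone and DBZ were -0.50 and 0.00. The second tested probe set gave -0.67, -0.71 and -0.74 with dexamethasone, DBZ and the combination, none past the threshold. There the DBZ array, at 30.4, lay below the vehicle arrays, at 65.1 and 50.9.

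Oasl2, an oligoadenylate synthetase-like protein, had signals of 512 and 352 in vehicle mice, 345 and 191 after dexamethasone, 167 after DBZ, and 217 and 171 after both drugs. Dexamethasone replicate 1 was just below vehicle replicate 2. Oasl2 fell in the combination by 1.09 ± 0.29 (adjusted p = 0.0493), and this call was lost without vehicle replicate 1 (-0.83) or 2 (-1.35) or combination replicate 1 (-1.25) or 2 (-0.93). The call also ended after quantile normalisation, with a pseudocount of 1 or at the 10th percentile, with no filter and with no intensity trend. Its differences with dexamethasone and DBZ were -0.70 and -1.29 (adjusted p = 0.152 and 0.0525).

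The remaining tested antiviral genes passed in no comparison. Bst2, the tether of budding virions, lay below vehicle on all treated arrays, with differences of -0.49, -0.70 and -0.39. Ifi35 differed by -0.27, -0.36 and -0.09, and Mx1, a dynamin-like antiviral GTPase, by -0.68, -0.23 and -0.18. Ifit3 was nearly level, at 111 and 126 on the vehicle arrays and 107 to 141 on the treated arrays. Ifit2, Zbp1 and Mx2 had a mean signal under the minimum of 38.8 and were not tested; their signals ranged from 20.9 to 50.3, 18.5 to 68.5 and 3.33 to 25.2. Isg15 was represented only by a probe set that also names another gene, Xaf1 had none, and both were not analysed here.

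Among the regulators, Irf9, the DNA-binding part of the type I complex, had signals of 270.3 and 281 in vehicle mice, 173 and 126 after dexamethasone, 150.0 after DBZ, and 179 and 135 after both drugs. All treated arrays were below the vehicle arrays. Irf9 fell by 0.85 ± 0.23 with dexamethasone (adjusted p = 0.0397), and this call was lost without any 1 of the vehicle, dexamethasone or combination arrays, at -0.63 to -1.06. Its differences with DBZ and the combination were -0.83 and -0.78 (adjusted p = 0.0949 and 0.0683).

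Irf7, the amplifier of type I interferon, had signals of 572 and 379 in vehicle mice, 640.3 and 488 after dexamethasone, 252 after DBZ, and 313 and 338 after both drugs. The 3 arrays of mice given DBZ lay below both vehicle arrays, and the dexamethasone arrays overlapped them. The differences were 0.26 ± 0.23, -0.85 ± 0.28 and -0.50 ± 0.23 and passed in no comparison. Irf1, a target of interferon gamma that drives class I genes, had 1058 and 1297 in vehicle mice, 1029 and 800.0 after dexamethasone, 895 after DBZ, and 1215 and 1110.0 after both drugs. Its differences were -0.36, -0.38 and -0.01, and those of Stat2 were 0.06, -0.21 and 0.42. Irf8, a factor of myeloid cells, had 501.5 and 369 in vehicle mice, 506 and 492 after dexamethasone, 396 after DBZ, and 382.5 and 369.8 after both drugs. Vehicle and treated arrays overlapped, with differences of 0.21, -0.12 and -0.19, and its second probe set gave 0.45, 0.25 and 0.14.

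Socs1, an inhibitor of the JAK kinases, ranged from 2.77 to 29.8 and was not tested. The chemokines, which attract T cells through CXCR3, were also under the minimum. Cxcl10 ranged from 15.5 to 31.5 over the 7 arrays. Cxcl9 had 21.7 and 4.58 in vehicle mice, 4.10 and 13.7 after dexamethasone, 18.7 after DBZ, and 40.8 and 38.6 after both drugs, so that both combination arrays were above every other array at a level that was not tested.

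The antigen processing and antiviral genes were set side by side. The median difference of the 8 antigen processing genes was -0.66, -0.63 and -0.76 with dexamethasone, DBZ and both drugs, and that of the 9 antiviral genes -0.50, -0.70 and -0.46. The spread between arrays of a group of the median over genes of log2 signal, counted from vehicle, was 0.13 for antigen processing and 0.16 for antiviral genes (SD, log2). The difference between the lists was not tested. Single antigen processing genes ranged from -1.50 to 0.12, -1.21 to 0.28 and -1.53 to -0.01, and single antiviral genes from -1.44 to 0.09, -1.75 to 0.13 and -2.47 to -0.09. The GTPases had medians of 0.02, -0.17 and -0.32, and the 5 tested regulators 0.06, -0.38 and -0.19.

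**Figure D4:**
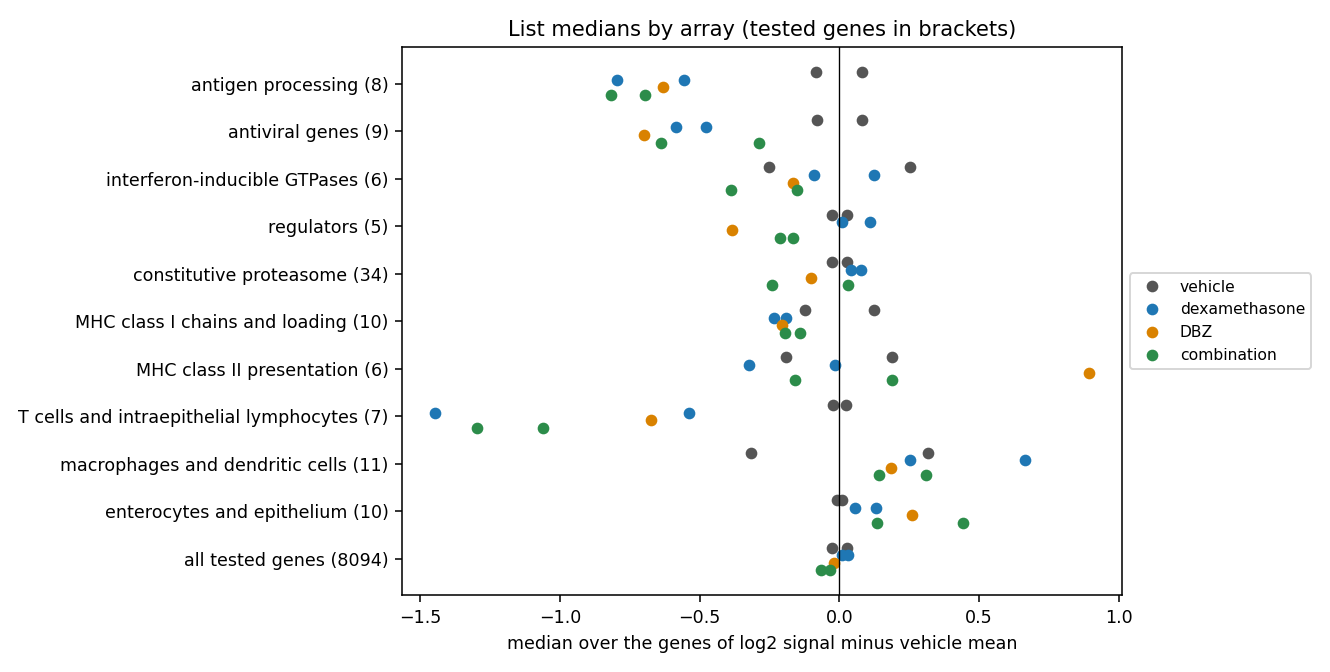
Median over the genes of each list of log2 signal counted from the vehicle mean (horizontal axis, log2; vertical axis, list; points are single arrays, coloured by group). Antigen processing lies at -0.56 to -0.82 and the antiviral genes at -0.29 to -0.70 on the treated arrays.

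The dexamethasone replicates differed across the list. Replicate 1 was higher than replicate 2 in 23 of the 28 members (82.1%), against 53.2% of all tested genes, including all 6 GTPases and all 5 regulators. The corresponding counts were 18 of 28 for vehicle and 16 of 28 for the combination, against 55.5% and 48.6% of all genes. The gap between dexamethasone replicates was 1.58 for Ifit1 and 0.11 for Psmb8 on the log2 scale.

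With an interferon-stimulated response element core in the window, 2 of 10 tested members fell with dexamethasone, 0 with DBZ and 2 in the combination, with medians of -0.27, -0.20 and -0.38. Without it, 4, 2 and 5 of 14 fell, with medians of -0.48, -0.79 and -0.57. Over all tested genes 5.29%, 3.89% and 3.5% fell. Tap2, Iigp1, Usp18 and Mx1 were tested but had no promoter entry, so they are in neither count. Of these, Usp18 fell with dexamethasone, DBZ and both drugs. The members that fell with dexamethasone thus included genes with this element core in the window, such as Ifit1 and Igtp. They also included genes with no match there, such as Psmb8 and Tap1. Gbp2, which rose, also had the core. With a gamma-activated site core in the window, 2, 2 and 1 of 6 tested members fell with dexamethasone, DBZ and both drugs. Their medians were -0.48, -0.62 and -0.43. Without that core 4, 0 and 6 of 18 fell, with medians of -0.48, -0.54 and -0.52.

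The drugs were next compared with each other. Between the combination and DBZ, 0 of 28 members passed in limma, against 0.111% of all genes, and 2 (Eif2ak2 and Rsad2) had an unadjusted p under 0.05, where 9.45% of all genes did. Between the combination and dexamethasone 0 passed, against 0.0371%, and 3 had an unadjusted p under 0.05, where 10.2% of all genes did. Shares of 2 and 3 in 28 are near these backgrounds. Against DBZ the values of Eif2ak2 and Rsad2 were 1.29 (95% interval 0.54 to 2.03) and -1.19 (-2.03 to -0.36), with adjusted p of 0.165 and 0.239. Their second tested probe sets gave 0.31 and -0.03. Against dexamethasone the 3 were Irf7 at -0.76 (-1.27 to -0.25), Ifit1 at -1.03 (-1.94 to -0.12) and Rsad2 at -0.69 (-1.37 to -0.01), with adjusted p of 0.362, 0.477 and 0.528. The second tested probe set of Rsad2 gave -0.07. Without dexamethasone replicate 2 the difference of Ifit1 was -1.82 and passed, with an adjusted p of 0.0119.

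For Psmb8, Tap1 and Psmb9 the 95% intervals between treated groups held 0. Psmb8 differed between the combination and dexamethasone by -0.03 (95% interval -0.44 to 0.37) and between the combination and DBZ by -0.32 (-0.81 to 0.18). For Tap1 the combination minus dexamethasone was 0.04 (-0.43 to 0.50), and for Psmb9 it was -0.10 (-0.65 to 0.45). These intervals leave room for differences of up to their bounds.

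The interaction sets the difference between the combination and dexamethasone against that between DBZ and vehicle, and asks whether the 2 drugs add on the log2 scale. Any difference of the vehicle arrays from all treated arrays also enters it. All 8 ileal markers passed lower in the interaction, with a median of -4.77, and 5 of 6 tested proximal markers passed higher, with a median of 2.33. The part of gut position in the member values was not tested. The interaction passed for 0 of 28 members, against 3.84% of all tested genes, and 6 members had an unadjusted p under 0.05, where 20.1% of all genes did. Those with the smallest p were Eif2ak2 at 1.76 (95% interval 0.80 to 2.72) and Psmb8 at 1.18 (0.54 to 1.82), with adjusted p of 0.0524 and 0.0525. Both lay just above the threshold and passed after quantile normalisation, at 1.83 and 1.24 (adjusted p = 0.0457 and 0.0479). The value of Eif2ak2 rests on a low DBZ signal, 18.2 on its brightest probe set. It was 2.26 with a pseudocount of 1. The second tested probe set of Eif2ak2 gave 0.73 in the interaction and did not pass. Psmb8 stood at 233 and 209 with both drugs, beside 235 and 218 with dexamethasone and 278 with DBZ. Gbp2, at -1.46 (-2.78 to -0.15), passed without vehicle replicate 1, at -2.14.

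Upstream of the members, 15 of 24 listed interferon ligands, receptors and kinases were tested. With dexamethasone, the interferon gamma receptor chain Ifngr1 rose by 0.58 ± 0.17 (adjusted p = 0.0477), and Il18, a cytokine that induces interferon gamma, the type I receptor chain Ifnar2, the interferon lambda receptor chain Il10rb and the repressor Irf2 fell, at -1.19, -1.10, -1.03 and -0.99. With DBZ only Il10rb passed, at -0.98, and in the combination Ifngr1 rose by 0.81 while Irf2 and Socs3 fell, at -1.0 and -1.36. Ifng, Ifnb1, Ifna2, Ifna4 and Il12b were under the minimum signal on every array. Of 9 tested genes for RNA and DNA sensing, 0 passed in limma in any of these comparisons.

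Markers of T cells differed beside the members. Of 18 listed markers of T cells and intraepithelial lymphocytes, 17 had a probe set and 7 were tested. Of these, 3, 3 and 4 fell with dexamethasone, DBZ and both drugs, against 5.29%, 3.89% and 3.5% of all tested genes. Their medians were -0.76, -0.67 and -1.18. The granule protease Gzma fell, at -1.51, -1.82 and -1.72, as did Gzmb at -1.54, -2.43 and -1.61 and the chemokine Ccl5 at -1.89, -1.32 and -1.71. The summed signal of the 17 was 2055 and 2358 on the vehicle arrays and 723 to 939 on the treated arrays. Cd3d, Cd247, Cd8b1, Cd4, Cd2 and Cd5 were under the minimum on all arrays. In whole tissue, fewer cells of a type and less RNA per cell cannot be told apart, and the part of these cells in the lower Psmb8, Tap1, Psmb9 and antiviral signals was not tested.

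Of 11 tested markers of macrophages and dendritic cells 0 passed in limma in the comparisons with vehicle, with medians of 0.58, 0.18 and 0.16, and their summed signal ranged from 1905 to 3155 on the vehicle arrays and from 2663 to 3636 on the treated arrays. Of 6 tested class II genes, Cd74, the invariant chain, rose with DBZ by 1.23 ± 0.32 (adjusted p = 0.0435), and the medians were -0.09, 0.89 and 0.04. With DBZ the differences of the 6 ranged from 0.28 to 1.31. Of 4 tested markers of B and plasma cells 1 fell with dexamethasone, and the summed signal ranged from 3978 to 4421 on the vehicle arrays and from 2760.0 to 4582 on the treated arrays. Of 8 smooth muscle markers 7, 4 and 4 rose, against 6.93%, 3.94% and 3.83% of all tested genes, with medians of 1.26, 1.35 and 0.94.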

How the data were processed

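The authors deposited MAS5 intensity values, per the submitters' processing notes, which give no version. The deposited table held 22690 probe sets in 8 sample columns with no detection calls, and gene symbols came from the platform annotation: 20393 probe sets carried 1 symbol, 691 several and 1606 none. The DBZ columns, which differed in 6 probe sets, were averaged into 1 array, so the planned 2 DBZ arrays became 1. Each array was rescaled to a trimmed mean of 250 (2% trimmed at each end), and 12.3 (20th percentile of all arrays) was added before log2. The filter kept probe sets with a mean of at least 38.8 (40th percentile) and dropped 64 controls.

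A linear model with 4 group means and an intensity trend was run on 13638 probe sets in limma 3.58.1 (R 4.3.3), with 2-sided tests, 3 residual and 6.83 prior degrees of freedom. Each gene was represented by its single-symbol probe set with the highest mean. Every listed member is named; array values are given for members past the threshold and the 4 of each role with the smallest p, and at most 4 genes of any other list, by smallest p. Psmb5, Psmb6, Psmb7, H2-K1 and H2-D1 were named beyond that rule for what they do, and Ifngr1 and Socs3 after their values were seen. The members and lists were chosen with earlier results of these data known. Upstream sequences are from RefSeq, GRCm38.p6. The pipeline was tested on simulated data. Alternatives were the deposited scale, quantile normalisation, a changed pseudocount, filter or variance model, a replicate block, other probe set choices and each array left out; a fit without the DBZ array was added after the values were seen. Replicate numbers were taken only as names, because the labels state no pairing of the samples. Deviations from group means correlated at 0.05, -0.12 and 0.11 between vehicle and dexamethasone, vehicle and combination, and dexamethasone and combination. These values cannot settle whether samples were paired, and the single DBZ array could not enter them.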

Additional observations from a re-analysis of the deposited data

How the results depend on the processing

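Of the values for single members that passed the threshold with or without an alternative, 9 changed direction, all on the deposited scale, on which the all-probe median shifts by -0.92, -1.0 and -0.99 with dexamethasone, DBZ and the combination because the vehicle columns were on another scale. With dexamethasone these were Tapbp -0.88, Gbp3 -0.77, Ifit3 -0.83, Stat2 -0.81, Irf7 -0.72 and Irf8 -0.77, and with DBZ Tapbp -0.71, Ifit3 -0.79 and Rsad2 -0.93. Of values that passed with neither setting, 28 against vehicle, from 19 results with reported sizes up to 0.42, had the other sign under an alternative. On the deposited scale 26, 25 and 25 members passed against vehicle and 20 in the interaction, the antigen processing medians were -1.63, -1.62 and -1.72 (interaction 1.47) and the antiviral medians -1.42, -1.59 and -1.35 (interaction 1.56). With dexamethasone 2 members passed with no filter, 3 with no intensity trend and 3 with only the groups compared. With no filter or only the groups compared, the calls of Psmb9, Gbp2, Igtp, Ifit1, Usp18 and Irf9 ended. All of these but that of Usp18 also ended with no intensity trend. The antigen processing median was -0.49 without probe sets that may cross-hybridise. That setting left out every probe set with a letter a, f, i, r, s or x before its ending. The a suffix need not mean cross-hybridisation. Psmb8, Tap2 and B2m thereby left the antigen processing genes, and Oasl2 and Mx1 the antiviral genes. With DBZ 14 passed with the identical columns as separate arrays, 5 with the replicate block and 6 with only the groups compared. In the combination 4 passed with no filter and 4 with no intensity trend. The calls of Psmb9, Psmb10, Gbp2, Oasl2 and Rsad2 ended in both settings. With a pseudocount of 1, the dexamethasone calls of Ifit1 and Usp18 ended, and with no filter the DBZ call of Usp18. Between the combination and DBZ 2 passed with separate columns, and the antigen processing median was -0.067 without cross-hybridising probe sets and -0.047 with the mean over probe sets. In the interaction 2 passed with quantile normalisation, 3 with separate columns, and 1 each with the pseudocount at 1 or the 10th percentile, the filter at the 60th percentile, no intensity trend, no cross-hybridising probe sets and the mean over probe sets. The antiviral median was -0.53 with DBZ and no filter, -0.22 between the combination and DBZ without cross-hybridising probe sets, and in the interaction 0.55 with the filter at the 60th percentile and 0.56 without cross-hybridising probe sets. Apart from the genes that a setting left out, the causes were not tested. The replicate block, which changed the count of calls by over 1.5 times only with DBZ, gave 7 and 9 calls with dexamethasone and the combination, of which 7 and 8 were calls without the block.

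Leaving out each vehicle, dexamethasone or combination array in turn gave 1 to 5 calls with dexamethasone, 2 to 5 with DBZ, 1 to 9 in the combination, 0 to 1 between the combination and dexamethasone, and 0 to 1 in the interaction. The antigen processing median ranged from -0.80 to -0.56 with dexamethasone, from -0.76 to -0.49 with DBZ, from -0.84 to -0.62 in the combination, from -0.265 to -0.059 between the combination and DBZ, and from 0.36 to 0.66 in the interaction. The antiviral median ranged from -0.59 to -0.44 with dexamethasone, from -0.79 to -0.61 with DBZ from -0.64 to -0.29 in the combination, from -0.25 to 0.17 between the combination and DBZ, from -0.32 to 0.012 between the combination and dexamethasone, and from 0.49 to 0.90 in the interaction. Fits without 1 array have fewer degrees of freedom for the spread. The fit without the DBZ array changed no call of a member between the other groups. The table gives no signal over background, so the values of dim probe sets rest on the pseudocount.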
